A study of Mus musculus with 25 samples.

Results

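A pair of hairpin lines made to lower the same gene, Slug, was compared with each other: 5 libraries of starved KPC cells carrying the first Slug hairpin (shSlug1) against 5 libraries carrying the second (shSlug2), which are 10 of the 25 libraries of the series, taken by their column names. KPC is a mouse pancreatic ductal adenocarcinoma cell line on a C57BL/6 background. All 10 libraries came from cells kept for 24 h in DMEM without glutamine, to which 10% dialysed serum had been added. Starved cells with a hairpin against luciferase (shLuc, 5 libraries) carried the same treatment and serve as the reference below. The other 10 libraries are of parental KPC cells, fed or starved. They entered the shared estimate of the spread, the filter that chose the genes tested and the scalings fitted across libraries. No fed cells with a hairpin were measured. Whether the replicates were separate cultures, whether each hairpin line was 1 clone or a pool, and the sequences of the hairpins the sources used here do not say, and the p-values therefore cover no more than the spread among these libraries, which may be technical.

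Slug, the protein of Snai2, belongs to the Snail family of zinc-finger transcription factors. These proteins bind E-box motifs in promoters, repress epithelial genes such as that of E-cadherin, and act in cells that leave an epithelial layer. A short hairpin RNA is processed to a small guide RNA that leads the silencing complex to the matching transcript, and the seed of such a guide can also pair with other transcripts, so that hairpins of different sequence against the same gene are a common control. The difference between the hairpins therefore holds whatever is not common to them, whether it comes from the sequence, from the integration of the construct or from the culture, and these sources cannot be told apart in a design with 1 line per hairpin.

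The libraries were counted from the 3′ ends of transcripts, and the deposited levels are counts scaled to a fixed library total (CPM). The 10 libraries held between 211687 and 421945 counts. The mitochondrial share of the counts was 20.9% ± 4.20 (SD, n = 5) with shSlug1 and 16.2% ± 1.504 (SD, n = 5) with shSlug2 (two-sided exact permutation test, p = 0.0317, 0.0952 after Benjamini-Hochberg adjustment over 6 library measures), and it was 24.3% and 26.5% in replicates 4 and 5 of shSlug1. Those replicates had the lowest totals of their group, 233147 and 211687 counts. Over genes with at least 20 counts in a pair of libraries they differed from replicates 1 to 3 by a chi-square per degree of freedom of 2.64 to 3.76, against 1.37 to 1.59 among replicates 1 to 3, and 1.41 between replicates 4 and 5. No pair of libraries agreed within sampling noise, so each was counted as 1 replicate. On the leading principal components of the hairpin libraries, shSlug1 replicates 4 and 5 and shSlug2 replicate 4, the shallowest of each group, lay apart from the rest. Counts of calls without those libraries, with scaling that leaves out the mitochondrial genes and after thinning to the same total are given with the results below. Markers of the ductal line had summed levels of 5107 to 5875 CPM with shSlug1 and 5291 to 6413 CPM with shSlug2, and 0 of 7 tested members were called. Markers of fibroblasts summed to at most 8.58 and 15.3 CPM, of leucocytes to at most 28.3 and 35.6 CPM, of endothelium to at most 21.2 and 21.7 CPM, of acinar cells to at most 16.6 and 9.70 CPM, and of islets to at most 9.45 and 12.4 CPM, in the order shSlug1, shSlug2. Col1a1, Col3a1, Cd79a, Prss1, Ins1 and Gcg were at 0 counts in all 10 libraries.

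Snai2, on chr16:14705852-14709385 of the forward strand of mm10, was nearly absent with either hairpin. The shSlug1 libraries held 0, 7.11, 5.29, 8.58 and 9.45 CPM, which rest on 0, 3, 2, 2 and 2 counts. The shSlug2 libraries held 4.82, 5.76, 7.66, 0 and 3.23 CPM, from 2, 2, 3, 0 and 1 counts. The libraries of the hairpins overlapped throughout, and each hairpin had 1 library without a count.

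The mean Snai2 level was 6.09 ± 3.75 CPM (SD, n = 5) with shSlug1 and 4.29 ± 2.89 CPM (SD, n = 5) with shSlug2, against 55.9 ± 24.0 CPM (SD, n = 5) with shLuc, where the lowest library held 34.1 CPM. Each hairpin differed from shLuc at the smallest p that 5 against 5 libraries allow (two-sided exact permutation test, p = 0.00794). Between the hairpins the log2 difference, shSlug1 minus shSlug2 on the scale of log2(CPM + 1), was 0.37 (SE 0.55, 95% interval -0.74 to 1.47), and the exact permutation test gave p = 0.524. At this depth a difference in remaining Snai2 was not detectable, and the interval spans a lower and a higher level with shSlug1. The sign turned with the libraries used, to -0.16 without shSlug2 replicate 4 and to -0.21 without shSlug1 replicates 4 and 5.

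**Figure D1:**
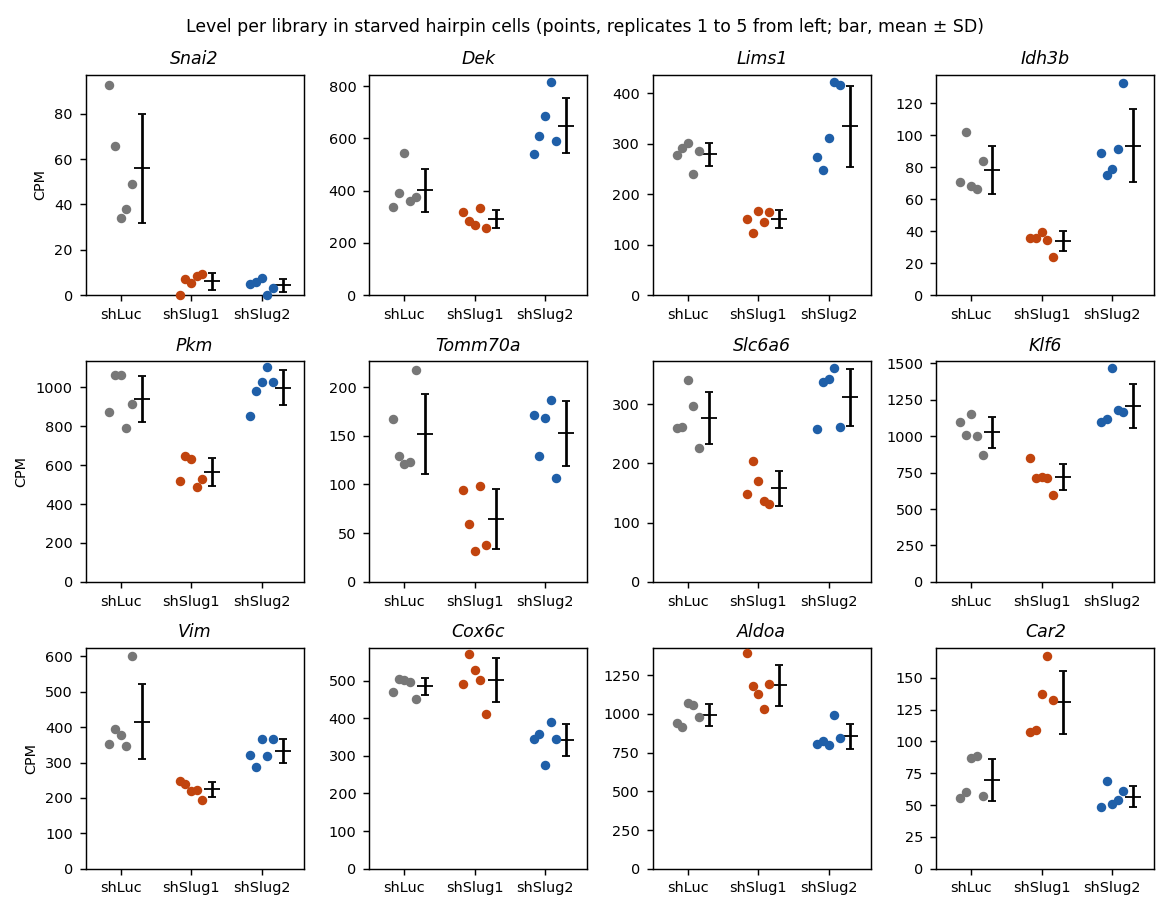
Level in CPM of 12 genes in each of the 15 starved hairpin libraries (points) with the group mean and SD (bar), every axis starting at 0. Snai2 lies at 9.45 CPM or lower in all 10 Slug hairpin libraries, while Dek, Lims1, Idh3b, Pkm, Tomm70a, Slc6a6, Klf6 and Vim are lower, and Cox6c, Aldoa and Car2 higher, in all 5 shSlug1 libraries than in any shSlug2 library.

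Across the transcriptome, 64 of 12473 genes tested (0.513%) differed between the hairpins at an adjusted p under 0.05 (limma-trend with Benjamini-Hochberg adjustment). Of these, 61 (0.489%) were lower with shSlug1 and 3 (0.0241%), Cox6c, Aldoa and Car2, were higher. The chromatin protein Dek, the glycolytic enzyme Pkm, the adhesion adaptor Lims1, the TCA-cycle subunit Idh3b, the taurine transporter Slc6a6 and the zinc-finger factor Klf6 led the list by p. The log2 differences ran from -2.90 to -0.43 among the lower calls, with a median of -0.95, and 24 of the 61 were at or beyond a log2 difference of 1 in size.

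The balance of higher and lower calls depended on the scaling and the tool, while each of the 64 kept its sign in every setting in which it was tested. Of all genes tested, 1196 of 12473 had an unadjusted p under 0.05, 912 lower and 284 higher with shSlug1. The median over all genes tested was -0.10, with 7371 of 12473 below 0, so the whole distribution was shifted slightly toward lower values with shSlug1. On the recovered whole reads edgeR called 90 genes (0.722%), 26 higher and 64 lower with shSlug1, and DESeq2 called 86, 32 higher and 54 lower. Of the 64 calls, edgeR shared 46 and DESeq2 49. After scaling without the mitochondrial genes 44 genes were called, 9 higher and 35 lower. Without shSlug1 replicates 4 and 5, limma called 27 genes, of which 24 were among the 64, and edgeR called 88, 42 higher and 46 lower. Without shSlug2 replicate 4 limma called 37. Lower calls outnumbered higher calls in every setting run, but by as little as 46 to 42, so the share of calls higher with shSlug1 was 4.69% as first given, 20.5% without the mitochondrial genes, 28.9% in edgeR and 37.2% in DESeq2. A count of libraries that does not use a model gave 259 genes (2.08%) whose 5 shSlug1 and 5 shSlug2 libraries did not overlap, 212 lower (1.7%) and 47 higher (0.377%) with shSlug1.

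**Figure D2:**
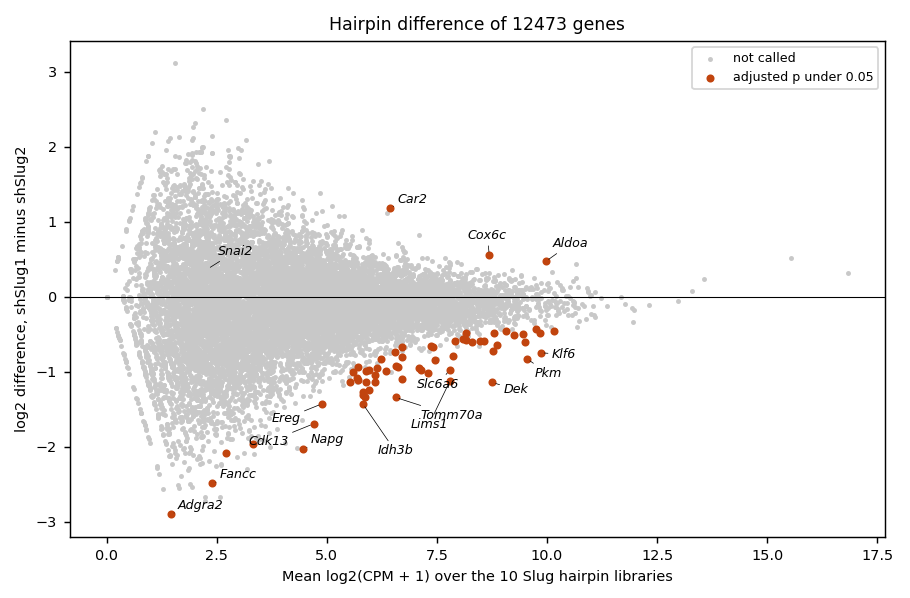
Difference between the hairpins (vertical axis, log2, shSlug1 minus shSlug2) against the mean level over the 10 Slug hairpin libraries (horizontal axis, log2(CPM + 1)) for 12473 genes, the 64 genes called at an adjusted p under 0.05 in red. The 61 lower calls lie at log2 differences of -0.43 and below, the 3 higher ones are Cox6c, Aldoa and Car2, and Snai2 lies at 0.37 within the cloud.

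Among the 64 calls, 8 were called in each of the 28 other settings that were run: Dek, Pkm, Lims1, Idh3b, Slc6a6, Klf6, Tomm70a and Cdk13. All 8 were lower with shSlug1. A further gene, Napg, was called in 27 settings and got no adjusted p from DESeq2. Of the other calls named below, Cald1, Fscn1 and Map1b were still called when all libraries were thinned to the same total, and the rest were not. The calls in every setting are described first, by what their products do.

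Dek encodes a chromatin-binding protein that takes part in DNA replication and splicing and is a known oncogene product. Its level was 319, 282, 267, 335 and 255 CPM in the shSlug1 libraries and 542, 610, 684, 816 and 591 CPM in the shSlug2 libraries. The highest shSlug1 library lay well under the lowest shSlug2 library. The group means were 292 ± 33.9 and 649 ± 107 CPM (SD, n = 5 each), a ratio of 2.23, and the log2 difference was -1.14 (SE 0.12, limma adjusted p = 4.7e-09). The shLuc libraries were at 337, 390, 543, 361 and 374 CPM. Their mean of 401 ± 81.5 CPM lay between those of the hairpins, and the highest of them was level with the lowest shSlug2 library. Against shLuc the log2 change was -0.45 with shSlug1 (limma adjusted p = 0.0467) and 0.70 with shSlug2 (limma adjusted p = 0.000569). Dek was the 1 gene called in opposite directions by the hairpins against shLuc. These changes share the shLuc libraries, and the first was no longer called under TMM scaling (adjusted p = 0.0703), without shSlug1 replicates 4 and 5 (0.103) or without shLuc replicate 5 (0.0672), whereas the difference between the hairpins remained called in every setting.

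The calls in central metabolism went in both directions. Pkm, the pyruvate kinase gene of the last step of glycolysis, was at 518, 649, 630, 489 and 529 CPM with shSlug1 and at 855, 981, 1029, 1102 and 1025 CPM with shSlug2. The groups did not overlap, and the ratio of means was 1.77 (log2 difference -0.83, SE 0.11, limma adjusted p = 1.5e-06). The shLuc mean of 940 ± 120 CPM was close to that of shSlug2. Aldoa, which encodes aldolase, an earlier enzyme of the same pathway, went the other way, with 1393, 1180, 1125, 1034 and 1195 CPM with shSlug1 and 807, 823, 802, 994 and 847 CPM with shSlug2. Its lowest shSlug1 library was just above the highest shSlug2 library, the log2 difference was 0.47 (SE 0.11, limma adjusted p = 0.0158), and it remained called in 7 of the 10 fits that leave out 1 library. Of 30 tested genes of glycolysis and hypoxia these were the 1 higher and the 1 lower call, with a median log2 difference of -0.17 beside -0.10 over all genes. Over all 12473 genes tested, 3 (0.0241%) were called higher and 61 (0.489%) lower. Pkm and Aldoa have close copies elsewhere in the genome, and the counting of shared reads is not described in the sources used here.

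Idh3b, the beta subunit of the NAD-dependent isocitrate dehydrogenase of the TCA cycle, had 35.7, 35.5, 39.7, 34.3 and 23.6 CPM with shSlug1 against 89.1, 74.8, 79.1, 91.2 and 133 CPM with shSlug2. Every shSlug1 library held less than any shSlug2 or shLuc library, and shSlug2 replicate 5 stood above its group. The ratio of means was 2.76 (log2 difference -1.43, SE 0.20, limma adjusted p = 2.6e-06). Its catalytic partner Idh3a had means of 157 ± 24.6 and 117 ± 14.8 CPM (SD, n = 5 each) without overlap and was not called (log2 difference 0.42, SE 0.18, limma adjusted p = 0.405). Of 33 TCA-cycle genes tested Idh3b was the 1 call, beside 64 of all 12473 genes tested (0.513%). The list median was 0.02, beside -0.10 over all genes. Idh3b overlaps Nop56, a gene on the opposite strand, which was at a mean of 204 CPM over the 10 libraries. Whether reads were counted by strand is not given, so reads of this pair may not be separated.

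In oxidative phosphorylation, Cox6c, a subunit of cytochrome c oxidase, was higher with shSlug1 at 492, 571, 529, 502 and 411 CPM than with shSlug2 at 344, 357, 276, 389 and 346 CPM. The groups did not overlap, although shSlug1 replicate 5 came close to shSlug2 replicate 4 (log2 difference 0.55, SE 0.12, limma adjusted p = 0.00678). Without shSlug2 replicate 3 the call was lost (adjusted p = 0.0584). The shLuc libraries lay between 450.5 and 503 CPM, within the range of shSlug1, and against shLuc the log2 change of Cox6c was 0.04 with shSlug1 (limma adjusted p = 0.943) and -0.51 with shSlug2 (limma adjusted p = 0.0139). It was the 1 call among 72 nuclear-encoded genes of oxidative phosphorylation, of which 21 had a negative difference and the median was 0.08. DESeq2 called 6 of them, Cox6c together with Cox6a1, Ndufb3, Ndufb4, Ndufv3 and Uqcr10. Over all 12473 genes tested, limma called 64 (0.513%) and DESeq2 86. Of the 7 tested mitochondrially encoded protein genes limma called 0, with 1 at an unadjusted p under 0.05, and edgeR and DESeq2 called 0 as well. Tomm70a, an import receptor of the outer mitochondrial membrane, was at 94.4, 59.2, 31.8, 98.7 and 37.8 CPM with shSlug1 and 171, 130, 168, 186 and 107 CPM with shSlug2. The groups stood apart despite a wide spread within shSlug1 (ratio 2.37, log2 difference -1.34, SE 0.21, limma adjusted p = 2.4e-05). Timm10, a chaperone of the space between the mitochondrial membranes chosen here after its values were seen, had means of 49.96 ± 6.25 and 101 ± 34.0 CPM (SD, n = 5 each; log2 difference -0.95, limma adjusted p = 0.0384) and was called in 4 of 10 fits without 1 library and not without shSlug1 replicates 4 and 5 (adjusted p = 0.147).

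At the cell surface and the cytoskeleton, Lims1, an adaptor (PINCH) of integrin-linked kinase at focal adhesions, held 150, 123, 167, 146 and 165 CPM with shSlug1 and 275, 248, 311, 423 and 417 CPM with shSlug2. The shSlug2 libraries 4 and 5 were the highest, and no shSlug1 library reached the lowest of them. The ratio of means was 2.23 (log2 difference -1.12, SE 0.15, limma adjusted p = 1.5e-06), and the shLuc mean of 279 ± 23.2 CPM was above every shSlug1 library. Slc6a6, which takes up taurine and beta-alanine, had 148, 204, 169, 137 and 132 CPM against 258, 337, 342, 360 and 262 CPM. Again the groups did not overlap (ratio 1.97, log2 difference -0.98, SE 0.14, limma adjusted p = 2.8e-06). Marcksl1, an actin-binding membrane protein, had means of 36.3 ± 12.1 and 90.7 ± 24.3 CPM, and Wwc2, a scaffold of the Hippo pathway, 49.7 ± 22.9 and 100.1 ± 6.85 CPM (SD, n = 5 each). Both were lower with shSlug1 (limma adjusted p = 0.000849 and 0.00119), and neither was called after thinning. Csnk1g3, a casein kinase 1 of the membrane-bound gamma type, was at 30.6, 42.7, 58.2, 25.7 and 47.2 CPM with shSlug1 and 86.7, 115, 81.7, 99.4 and 90.5 CPM with shSlug2. The groups did not overlap (log2 difference -1.24, SE 0.23, limma adjusted p = 0.00108), and the call was lost without shSlug1 replicates 4 and 5 and shSlug2 replicate 4 (adjusted p = 0.066). Selenot, a selenoprotein of the endoplasmic reticulum, was at 51.0, 66.4, 63.5, 21.4 and 18.9 CPM against 81.9, 92.1, 86.8, 112 and 67.9 CPM. Its groups did not overlap, and shSlug1 replicates 4 and 5 lay far under the other 3. The log2 difference was -1.14 (SE 0.26, limma adjusted p = 0.0132), and it was not called without those replicates (adjusted p = 0.593), in edgeR (0.0538) or in DESeq2 (0.0794).

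Transcription and RNA processing gave the remaining calls that held throughout. Klf6 was at 849, 711, 723, 716 and 595 CPM with shSlug1 and at 1098, 1117, 1470, 1181 and 1170 CPM with shSlug2. The groups did not overlap, and shSlug2 replicate 3 stood above the others (ratio 1.68, log2 difference -0.75, SE 0.11, limma adjusted p = 2.4e-05). Cdk13, a cyclin K-dependent kinase of RNA polymerase II, was a gene of low level with 7.65, 16.6, 18.5, 12.9 and 14.2 CPM against 45.8, 46.1, 22.97, 70.4 and 58.2 CPM. The highest shSlug1 library was close to the lowest of shSlug2 (ratio 3.49, log2 difference -1.70, SE 0.29, limma adjusted p = 0.000242). Zrsr2, a splicing factor of the minor spliceosome, had means of 37.0 ± 9.46 and 93.8 ± 18.5 CPM (SD, n = 5 each; log2 difference -1.33, limma adjusted p = 0.000221), and its call was lost after thinning. In membrane traffic, Napg, the gamma form of the SNAP proteins that help take apart SNARE complexes, was at 7.65, 9.48, 5.29, 17.2 and 14.2 CPM against 50.6, 31.7, 43.4, 41.4 and 54.9 CPM. All shSlug1 libraries lay under the shSlug2 and shLuc ranges (ratio 4.13, log2 difference -2.03, SE 0.34, limma adjusted p = 0.000175). The levels of Napg rest on 16 counts over the shSlug1 libraries and 76 over those of shSlug2. Fancc, of the Fanconi anaemia repair complex, had the largest fitted difference of the genes taken by the naming rule, -2.49 on the log2 scale, but from means of 2.61 and 11.9 CPM with 3 shSlug1 libraries at 0, and it was called in 2 of 10 fits without 1 library (limma adjusted p = 0.0489 with all). Adgra2, an adhesion receptor chosen here after its values were seen, had 0 counts in all shSlug1 libraries and 13 counts in those of shSlug2. Set against 3 counts over the shSlug1 group, the shSlug2 level was 4.16-fold higher. That ratio leaves out the sampling error of the 13 counts and is not a lower bound. Adgra2 was called in 2 of 10 such fits. Fancc and Adgra2 each overlap a gene on the opposite strand, 2010111I01Rik and Brf2, at means of 23.1 and 20.9 CPM over the 10 libraries. As for Idh3b, reads of these pairs may not be separated.

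The shLuc libraries place these differences. Of the 61 genes lower with shSlug1, the mean log2 level of shLuc lay between those of the hairpins for 40, above both for 19 and below both for 2. It was nearer to shSlug2 for 51 of the 61 and nearer to shSlug1 for 10, while over all genes tested it was nearer to shSlug2 for 6723 and to shSlug1 for 5750. The median log2 change against shLuc over the 61 genes was -0.76 with shSlug1 and 0.16 with shSlug2. These changes share the shLuc libraries with each other and the hairpin libraries with the calls, and they are given as a description only. The genes with shLuc near shSlug1 include Limd2, with means of 72.4, 153 and 78.2 CPM in the order shSlug1, shSlug2, shLuc, and the transcription factor Sox4. Sox4 was at 592, 595, 582, 588 and 572 CPM with shSlug1, at 785, 817, 802, 820 and 918 CPM with shSlug2, and at a mean of 615 ± 63.5 CPM with shLuc. Its shSlug2 libraries were thus all above those of both other groups (log2 difference -0.50, SE 0.11, limma adjusted p = 0.012). Sox4 was called in 9 of 10 fits without 1 library, but not under TMM scaling (adjusted p = 0.0532), without shSlug1 replicates 4 and 5 (0.0856), without these and shSlug2 replicate 4 (0.13) or after thinning (0.102). Limd2 was not called without shSlug1 replicates 4 and 5 either (adjusted p = 0.0775). Both genes were chosen after their values were seen. Over all genes, limma called 182 (1.46%) with shSlug1 against shLuc and 81 (0.649%) with shSlug2 against shLuc.

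**Figure D3:**
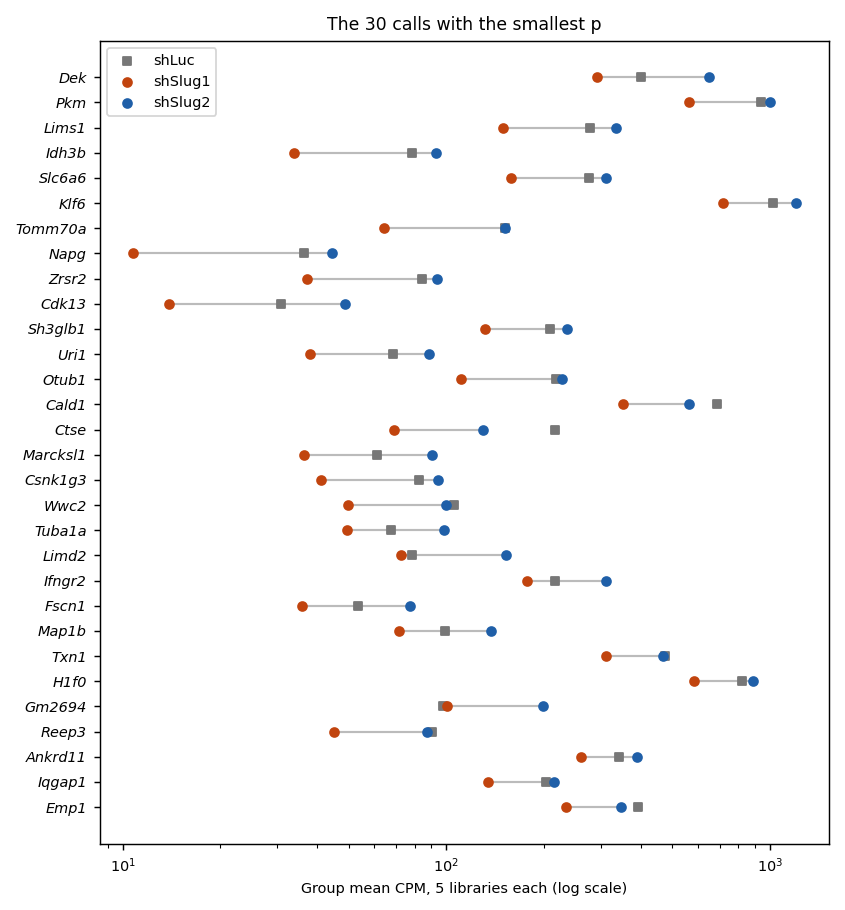
Group mean level (CPM, log scale) of the 30 calls with the smallest p that have counts in both hairpin groups, for shSlug1, shSlug2 and shLuc, 5 libraries each, with a line joining the hairpins. For most of the genes the shLuc square lies near the shSlug2 point, and Cald1, Ctse and Emp1 have shLuc means above both hairpins.

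Since Slug is a regulator of the epithelial to mesenchymal transition (EMT), genes of that programme were compared between these lines, both of which held less Snai2 than shLuc. Of 25 mesenchymal and EMT genes tested, 3 were lower with shSlug1 and 0 were higher. Over all 12473 genes tested, 61 (0.489%) were lower and 3 (0.0241%) higher. The list median was -0.17 beside -0.10 over all genes. Vim, the intermediate filament protein vimentin, was at 247, 239, 220, 223 and 194 CPM with shSlug1 and at 323, 288, 368, 319 and 365 CPM with shSlug2. The groups did not overlap (log2 difference -0.56, SE 0.12, limma adjusted p = 0.00827). The shLuc libraries, at 352, 396, 378, 348 and 602 CPM, had a mean of 415 ± 106 CPM and overlapped those of shSlug2. Against shLuc the log2 change of Vim was -0.86 with shSlug1 (limma adjusted p = 3.7e-06) and -0.29 with shSlug2 (limma adjusted p = 0.409). Cald1, the actin-binding protein caldesmon, was at 485, 391, 312, 347 and 222 CPM against 585, 576, 531, 609 and 511 CPM. The shSlug1 libraries were spread widely and all lay under those of shSlug2 (log2 difference -0.72, SE 0.13, limma adjusted p = 0.000781). Phldb2, a protein of the cell cortex that anchors microtubules near adhesions, was at 477, 346, 357, 343 and 359 CPM against 595, 461, 536, 559 and 485 CPM. Its shSlug1 replicate 1 overlapped the shSlug2 range (log2 difference -0.49, SE 0.11, limma adjusted p = 0.0192). Without shSlug1 replicates 4 and 5 none of these 3 was called (adjusted p = 0.147 for Vim, 0.085 for Cald1 and 0.205 for Phldb2). Phldb2 was called in 3 of 10 fits without 1 library. edgeR called Vim and Cald1 but not Phldb2 (adjusted p = 0.0662).

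No other gene of the mesenchymal and EMT list was called by limma. Outside the lists, and chosen after its values were seen, the adhesion gene Ncam1 was lower with shSlug1. Its means were 57.2 ± 5.24 and 115 ± 12.7 CPM (SD, n = 5 each), without overlap (log2 difference -0.99, SE 0.23, limma adjusted p = 0.0161). Ncam1 was called in 7 of 10 fits without 1 library and not without shSlug1 replicates 4 and 5. Snai1, the closest relative of Snai2, was at 0 counts in all 10 libraries. The zinc-finger repressor Zeb1 had means of 51.4 ± 11.1 and 57.0 ± 15.96 CPM and Zeb2 of 20.6 ± 7.46 and 33.4 ± 10.1 CPM (SD, n = 5 each; limma adjusted p = 0.913 and 0.598). Fibronectin (Fn1) had 36.5 ± 9.86 and 43.2 ± 7.82 CPM, and N-cadherin (Cdh2) 5.25 ± 2.53 and 1.57 ± 1.44 CPM (limma adjusted p = 0.756 and 0.593). Among all 12473 genes tested, 64 (0.513%) were called and 1196 had an unadjusted p under 0.05. Of the 24 genes of epithelial junctions and polarity, limma, edgeR and DESeq2 called 0, and 2 had an unadjusted p under 0.05. Their median log2 difference was 0.33, with 8 of 24 below 0, and it was between 0.23 and 0.41 under the other scalings, under edgeR and without the libraries that stood apart. E-cadherin (Cdh1) itself had 41.2 ± 10.7 and 38.7 ± 5.14 CPM (log2 difference 0.06, SE 0.22, limma adjusted p = 0.97), with overlapping libraries. Epcam, another epithelial adhesion gene, was too low to be tested, with means of 0.945 and 1.82 CPM. The matricellular gene Sparc had no overlap, at 0, 2.37, 2.65, 0 and 4.72 CPM with shSlug1 and 9.63, 17.3, 12.8, 12.4 and 19.4 CPM with shSlug2. Its shSlug1 libraries all lay under the floor of 3 counts, which was 7.11 to 14.2 CPM in that group. Sparc just missed the threshold in limma (adjusted p = 0.0635) and passed it in edgeR (0.0395). It was also the 1 edgeR call among 33 genes of the extracellular matrix and its enzymes, where limma and DESeq2 called 0 and 7 had an unadjusted p under 0.05. Of 28 integrin and adhesion genes limma, edgeR and DESeq2 called 0, with 6 at an unadjusted p under 0.05. Of 15 genes of simple keratins and gastric-type differentiation 1 was called, Ctse, the aspartic protease cathepsin E. Its means were 68.9 ± 16.5 CPM with shSlug1, 130 ± 13.9 CPM with shSlug2 and 217 ± 28.9 CPM with shLuc, with no overlap between the hairpins (log2 difference -0.93, SE 0.17, limma adjusted p = 0.000819).

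The cytoskeleton lists held the same pair, Cald1 and Vim, as the 2 calls among 31 actin genes, and Tuba1a as the 1 call among 14 tubulin genes. All 3 were lower with shSlug1, as were 61 of all 12473 genes tested (0.489%). Tuba1a, an alpha-tubulin gene with close copies, was at 25.5, 54.5, 47.7, 77.2 and 42.5 CPM with shSlug1 and 77.1, 109, 120, 99.4 and 87.3 CPM with shSlug2. The highest shSlug1 library, replicate 4, was level with the lowest of shSlug2 (log2 difference -1.05, SE 0.20, limma adjusted p = 0.00186). Outside the lists, and chosen after their values were seen, the actin bundler Fscn1 had means of 35.9 ± 11.3 and 77.2 ± 17.9 CPM, the microtubule protein Map1b 71.4 ± 18.6 and 138 ± 36.0 CPM, and the scaffold Iqgap1 135 ± 20.01 and 216 ± 38.1 CPM (SD, n = 5 each). All 3 were lower with shSlug1 (limma adjusted p = 0.00355, 0.00466 and 0.00678) and none was called without shSlug1 replicates 4 and 5.

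Within the signalling lists, the calls were 2 ligands of the EGF receptor. Areg (amphiregulin) and Ereg (epiregulin) are neighbours on mouse chromosome 5 and are secreted in response to ERK signalling and stress. Areg was at 96.9, 80.6, 74.1, 120 and 128 CPM with shSlug1 and 171, 207, 258, 149 and 181 CPM with shSlug2. Ereg was at 12.8, 11.8, 26.5, 12.9 and 28.3 CPM against 38.5, 57.6, 63.8, 45.6 and 38.8 CPM. For both genes all shSlug1 libraries lay under all shSlug2 libraries. The log2 difference was -0.95 for Areg (SE 0.24, limma adjusted p = 0.0346) and -1.43 for Ereg (SE 0.32, limma adjusted p = 0.013), and edgeR and DESeq2 called both. Areg was called in 3 and Ereg in 8 of the 10 fits without 1 library, and Areg was not called under TMM scaling (adjusted p = 0.0624). Relative to shLuc, with means of 159 ± 48.8 CPM for Areg and 73.0 ± 17.98 CPM for Ereg, the log2 change of Ereg was -1.99 with shSlug1 (limma adjusted p = 6.3e-05) and -0.56 with shSlug2 (limma adjusted p = 0.643). These were the 2 calls among 15 genes of the EGF receptor family, among 28 genes of ERK output and among 19 secreted and receptor genes of the stress response, lists that share them. Beside this, 64 of all 12473 genes tested (0.513%) were called, 61 of them (0.489%) lower with shSlug1. Nras, the small GTPase upstream of that pathway and chosen after its values were seen, was at 133, 116, 135, 137 and 132 CPM against 205, 199, 194, 220 and 217 CPM, without overlap (log2 difference -0.66, SE 0.15, limma adjusted p = 0.012). It was not called without shSlug1 replicates 4 and 5 (adjusted p = 0.0503), under quantile scaling (0.0786), without the mitochondrial genes (0.0514) or after thinning (0.109).

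Other signalling lists had 0 calls in limma. Beside this, 64 of all 12473 genes tested were called and 1196 had an unadjusted p under 0.05. Of 30 genes of TGF-beta, activin and BMP signalling, 7 had an unadjusted p under 0.05, edgeR called 2 (Id3 and Bmp4) and DESeq2 0. Bmp4, a secreted ligand, had means of 47.0 ± 12.9 and 20.01 ± 13.2 CPM (SD, n = 5 each; limma adjusted p = 0.0638). Of 25 YAP targets 1 had an unadjusted p under 0.05, edgeR called 0 and DESeq2 called 1, Cyr61, with means of 292 ± 27.1 and 214 ± 45.6 CPM (SD, n = 5 each). Of 22 NF-kB and inflammatory genes 4 had an unadjusted p under 0.05, and edgeR and DESeq2 each called 2, Nfkbia and Sod2, in opposite directions. Nfkbia, the inhibitor of NF-kB, was at 145, 147, 132, 184 and 151 CPM with shSlug1 and 212, 256, 278, 232 and 210 CPM with shSlug2. Sod2, the mitochondrial superoxide dismutase, was at 102, 121, 151, 133 and 123 CPM against 86.7, 86.3, 99.6, 58.0 and 58.2 CPM. Neither gene's groups overlapped, and in limma the adjusted p was 0.19 and 0.114.

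Innate responses that double-stranded RNA can set off were also compared, since each line carries a hairpin. Of 14 tested interferon-response genes limma, edgeR and DESeq2 called 0, and 0 had an unadjusted p under 0.05. Across all genes tested, 1196 of 12473 did. The list median was -0.15. Isg15, Ifih1, Dhx58, Oas2, Oasl2, Usp18, Gbp2, Gbp7 and Psmb9 were at 0 counts in all 10 libraries. Of 13 genes of MHC class I presentation limma, edgeR and DESeq2 called 0, with 1 at an unadjusted p under 0.05. Among 17 genes of the RNA interference machinery all 3 tools called 0, and 2 had an unadjusted p under 0.05. Ago2, the slicing Argonaute, had means of 43.1 ± 8.35 and 61.3 ± 19.2 CPM, and Ran, the GTPase that powers the export of hairpin precursors, 374 ± 22.96 and 473 ± 27.8 CPM (SD, n = 5 each; limma adjusted p = 0.485 and 0.234).

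Both lines were starved of glutamine, so the amino acid response was compared as well. Of 42 genes of the ATF4-driven response limma called 0, with 11 at an unadjusted p under 0.05 and 36 of 42 below 0, beside 1196 and 7371 of 12473 over all genes tested. The median log2 difference was -0.26, and between -0.22 and -0.13 under the other scalings, edgeR and without the libraries that stood apart. Slc7a11, the cystine importer that exports glutamate, was the 1 call of edgeR (adjusted p = 0.00941) and of DESeq2 (0.0243). It was at 12.8, 23.7, 37.1, 34.3 and 33.1 CPM with shSlug1 and 72.2, 63.3, 66.4, 41.4 and 54.9 CPM with shSlug2. The groups did not overlap, shSlug2 replicate 4 came closest to shSlug1, and limma gave an adjusted p of 0.0761. Atf4 itself had means of 199.6 ± 23.4 and 222 ± 16.2 CPM, asparagine synthetase (Asns) 475 ± 70.6 and 574 ± 48.2 CPM, and the stress factor Ddit3 43.4 ± 10.8 and 46.1 ± 11.7 CPM (SD, n = 5 each; limma adjusted p = 0.781, 0.478 and 0.973). For all 3 the libraries overlapped. Eif4ebp1, a repressor of translation, had 1703 ± 134 and 2097 ± 119 CPM without overlap and was not called (log2 difference -0.30, SE 0.10, limma adjusted p = 0.245). Of 24 genes of glutamine, glutamate and proline metabolism limma called 0, with 6 at an unadjusted p under 0.05. The list median was -0.31, and between -0.26 and -0.11 under the same alternatives, and Slc7a11 was again the 1 call of edgeR and DESeq2. Ppat, the amidotransferase that opens purine synthesis with glutamine, had 29.9 ± 5.86 and 57.9 ± 13.2 CPM without overlap (limma adjusted p = 0.107). Of 23 cytosolic aminoacyl-tRNA synthetases limma, edgeR and DESeq2 called 0, with 1, Tars, at an unadjusted p under 0.05.

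Lists of growth and maintenance held 0 or 1 limma calls each. Of all 12473 genes tested, 64 (0.513%) were called and 1196 had an unadjusted p under 0.05. Dek was the 1 call among 49 DNA replication genes, and of 57 mitosis genes limma, edgeR and DESeq2 called 0, with 11 at an unadjusted p under 0.05. Of 22 G1 cyclins, kinases and inhibitors limma called 0, with 3 at an unadjusted p under 0.05, edgeR called Cdkn2a and DESeq2 called 0. Cdkn2a, the locus of the p16 and ARF inhibitors, had means of 283 ± 69.8 and 452 ± 120 CPM (SD, n = 5 each; adjusted p = 0.111 in limma and 0.00155 in edgeR). Of 34 NRF2 and redox genes limma called 1, Txn1, while edgeR and DESeq2 each called 3, Txn1 and Slc7a11 as lower and Sod2 as higher with shSlug1. Txn1, the cytosolic thioredoxin, was at 298, 401, 304, 275 and 283 CPM with shSlug1 and 402, 466, 470, 514 and 488 CPM with shSlug2. Its shSlug1 replicate 2 nearly met the lowest shSlug2 library (log2 difference -0.59, SE 0.12, limma adjusted p = 0.00466). Sdcbp2, a relative of syntenin, was the 1 call among 41 genes of vesicle traffic, with means of 773 ± 62.0 and 1086 ± 94.0 CPM (SD, n = 5 each; log2 difference -0.49, limma adjusted p = 0.0208), and it was called in 6 of 10 fits without 1 library. Neither was called without shSlug1 replicates 4 and 5.

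For the remaining lists limma called 0. Over all genes tested, 1196 of 12473 had an unadjusted p under 0.05. The counts at an unadjusted p under 0.05 were 6 of 31 in nucleotide synthesis, 8 of 36 in translation initiation and elongation, 4 of 75 among cytosolic ribosomal proteins, 2 of 31 in the proteasome, 7 of 29 in the unfolded protein response, 6 of 25 among heat shock proteins, 1 of 28 in sterol synthesis, 5 of 24 in fatty acid synthesis and 1 of 26 among p53 targets, and edgeR and DESeq2 called 0 in each. In autophagy and lysosome genes it was 1 of 46, edgeR called 0 and DESeq2 called Cd63. Among 12 nuclear long noncoding RNAs limma called 0, with 2 at an unadjusted p under 0.05, and edgeR and DESeq2 called both, Malat1 and Neat1. Malat1 had means of 1879 ± 215 and 1403 ± 271 CPM (SD, n = 5 each; limma adjusted p = 0.0698), and Neat1, the scaffold of nuclear paraspeckles, 63.7 ± 15.2 and 35.2 ± 4.61 CPM (limma adjusted p = 0.0698). Both are retained in the nucleus. The mitochondrial share was higher with the same hairpin. With scaling that leaves out the mitochondrial genes limma called both (adjusted p = 0.0121 for Malat1 and 0.0379 for Neat1), and without shSlug1 replicates 4 and 5 it called neither (0.2796 and 0.0663).

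**Figure D4:**
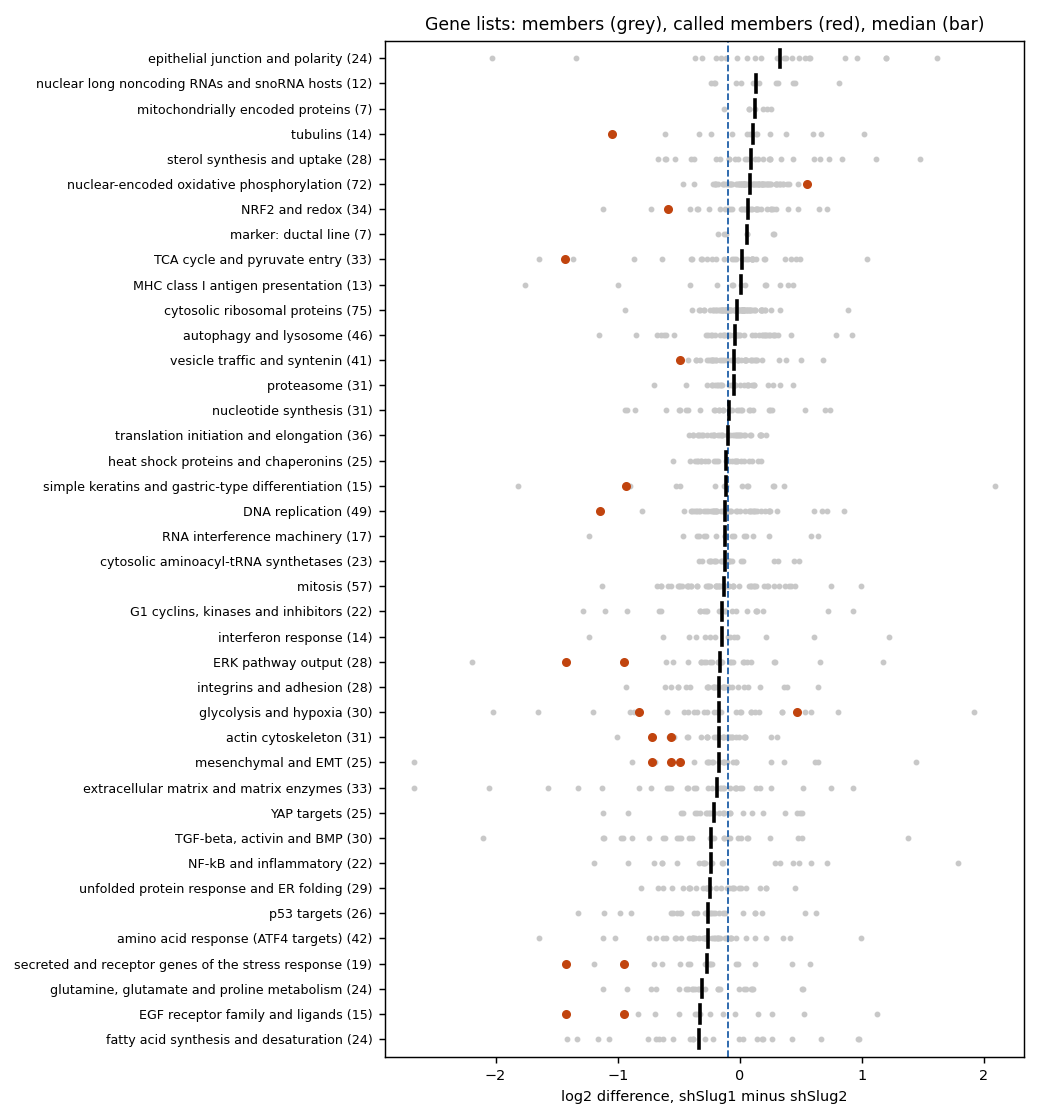
Log2 difference between the hairpins (shSlug1 minus shSlug2) of the members of each gene list with at least 3 tested genes, the number tested in brackets, called members in red, the list median as a bar and the median of all 12473 genes, -0.10, as a dashed line. Epithelial junction genes have the highest list median at 0.33 without a call, and no list holds more than 3 calls.

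The 3 genes higher with shSlug1 are completed by Car2, a carbonic anhydrase, which was at 107, 109, 138, 167 and 132 CPM with shSlug1 and 48.2, 69.1, 51.1, 53.9 and 61.4 CPM with shSlug2. The groups were well apart, with shLuc libraries of 55.6 to 88.6 CPM under all shSlug1 libraries. The ratio of means was 2.30 (log2 difference 1.18, SE 0.28, limma adjusted p = 0.0206). edgeR (adjusted p = 5.1e-06) and DESeq2 (9.0e-05) called it, while in limma it was called in 4 of 10 fits without 1 library and not without shSlug1 replicates 4 and 5 (adjusted p = 0.241).

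Promoters of the calls were read for the E-box letters that Snail proteins bind, CAGGTG, searched on both strands, so that it also appears as its reverse complement CACCTG, in the 250 bases before and the 50 bases after each RefSeq start. Of the 64 calls 49 had a promoter in the RefSeq table, and the motif was in a promoter of 6 of the 49 (12.2%), namely Gnas, Areg, Wwc2, Lims1, Ppp3cb and Phldb2, beside 6098 of 27025 genes (22.6%) and 6640 of 32851 promoters (20.2%). Of the genes described above, Dek, which led the calls, is shown for a promoter without the letters, and Lims1, Areg and Phldb2 for promoters with 1 match. The sequences are those of RefSeq on GRCm38.p6, written 5′ to 3′ on the strand of the gene, with the motif in capitals. A match describes these letters and is no evidence of binding, and its absence says only that the window lacks them. The windows are chr13:47106172-47106471 on the reverse strand for Dek, chr10:58371204-58371503 on the forward strand for Lims1, chr5:91139349-91139648 on the forward strand for Areg and chr16:45844329-45844628 on the reverse strand for Phldb2.
Dek: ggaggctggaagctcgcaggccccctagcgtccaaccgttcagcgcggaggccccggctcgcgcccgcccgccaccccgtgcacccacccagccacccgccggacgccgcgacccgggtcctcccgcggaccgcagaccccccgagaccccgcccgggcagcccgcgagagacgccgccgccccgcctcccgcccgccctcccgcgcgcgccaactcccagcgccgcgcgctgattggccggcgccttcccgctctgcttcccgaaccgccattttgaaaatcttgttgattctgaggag
Lims1: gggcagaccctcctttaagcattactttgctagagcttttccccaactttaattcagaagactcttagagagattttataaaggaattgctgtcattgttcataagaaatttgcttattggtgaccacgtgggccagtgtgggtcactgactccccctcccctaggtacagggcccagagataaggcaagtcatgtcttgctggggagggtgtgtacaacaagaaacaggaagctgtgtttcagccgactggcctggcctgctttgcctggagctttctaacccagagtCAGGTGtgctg
Areg: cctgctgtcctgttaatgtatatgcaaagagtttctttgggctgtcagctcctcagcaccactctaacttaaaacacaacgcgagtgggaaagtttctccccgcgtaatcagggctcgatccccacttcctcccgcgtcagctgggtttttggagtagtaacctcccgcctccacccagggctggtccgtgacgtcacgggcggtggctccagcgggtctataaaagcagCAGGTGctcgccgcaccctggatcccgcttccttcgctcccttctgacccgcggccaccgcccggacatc
Phldb2: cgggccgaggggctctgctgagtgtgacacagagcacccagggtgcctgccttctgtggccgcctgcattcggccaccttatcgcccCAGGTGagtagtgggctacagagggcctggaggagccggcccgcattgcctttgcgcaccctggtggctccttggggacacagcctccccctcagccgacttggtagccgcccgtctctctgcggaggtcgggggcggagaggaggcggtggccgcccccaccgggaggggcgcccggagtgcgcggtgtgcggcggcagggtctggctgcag
The first base of the motif lies 39 bases after the RefSeq start shown for Lims1, 20 bases before that for Areg and 163 bases before that for Phldb2. In GENCODE, Lims1 spans chr10:58323466-58424691 and Phldb2 chr16:45746243-45953598, so these windows belong to starts inside the genes. Which start these cells use was not tested. In Lims1 and Areg the shSlug2 level was nearer to shLuc than the shSlug1 level, and Phldb2 had a shLuc mean of 809 ± 64.7 CPM, above both hairpins.

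**Figure D5:**
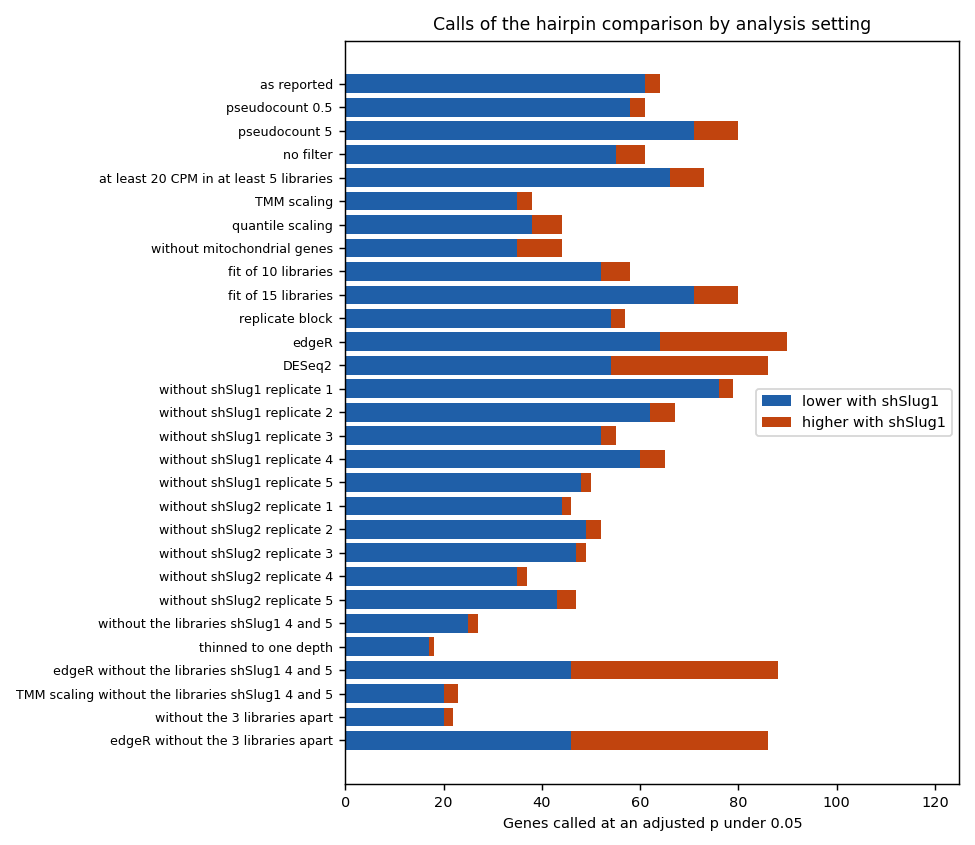
Number of genes called between the hairpins at an adjusted p under 0.05 (horizontal axis) in each analysis setting, split into genes lower and higher with shSlug1. The count of 64 falls to 18 when libraries are thinned to 1 depth and to 27 without shSlug1 replicates 4 and 5, and the share of genes higher with shSlug1 is largest in the edgeR and DESeq2 settings. Thinning was 1 random draw to 158729 counts, fewer than any hairpin library held. Fits with fewer counts or libraries have less power, so a lost call alone does not show a smaller difference.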

How the data were processed

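RNA of 25 KPC libraries (5 groups of 5) was profiled with a 3′ kit (QIAseq UPX 3′ Transcriptome, per the labels' protocols). The deposited table holds CPM, in which the authors scaled each library to the same total, on mm10 per the submitters' processing notes. The sources used here give neither the aligner nor the use of molecular identifiers and strand. Dividing by each column's smallest step gave whole numbers for 100% of values (tolerance 0.001), so counts were recovered from the deposited CPM, with totals of 158729 to 549893. These totals set the precision, and 3 counts were taken as the floor.

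log2(CPM + 1) was fitted with limma-trend 3.58.1 (R 4.3.3), all 25 libraries, 1 coefficient per group. Genes reaching 5 CPM in 5 or more libraries (12473) entered two-sided tests, called at a Benjamini-Hochberg adjusted p under 0.05. edgeR 4.0.16 (quasi-likelihood, TMM) and DESeq2 1.42.0 ran on the recovered counts. Scripts were tested on simulated data. Other alternatives were pseudocounts, filters, scalings, thinning, a replicate block and left-out libraries. Fits without groups of libraries that stood apart under edgeR or TMM, or without 3 libraries, were added after seeing the data.

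Genes and coordinates follow GENCODE M21. Named genes are Snai2, the 12 largest differences in each direction among calls of at least 10 CPM without overlap or predicted symbols, the 6 smallest p in each direction, up to 6 genes called in opposite directions against shLuc, up to 4 genes per list by p, and fixed EMT and amino acid response genes; others are marked. The comparison, its members and the lists were chosen with earlier results of these data known.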

Additional observations from a re-analysis of the deposited data

Results flagged for a closer look

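In each hairpin group, the lowest and highest library of Snai2 and of each call that the naming rule took was compared with its neighbours by the gap to the nearest library divided by the range of the group, which passes Dixon's 95% critical value for 5 libraries above 0.71. Of 64 groups tested 5 passed, and chance passes about 1 in 20 groups. The gap ratio was 0.717 for Idh3b with shSlug2, where replicate 5 stood high, 0.7655 for Aldoa with shSlug2, where replicate 4 stood high, and 0.7775 for Klf6 with shSlug2, where replicate 3 stood high. It was 0.8812 for Phldb2 with shSlug1, where replicate 1 stood high, and 0.7624 for Txn1 with shSlug1, where replicate 2 stood high. These are 5 different libraries. The 3 shSlug2 libraries lie high in a gene whose groups do not overlap, and Phldb2 is the 1 gene of the 5 whose groups overlap.

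Dek differed between the hairpins in its change against shLuc, with a tested difference of -1.144 on the log2 scale, from -0.45 with shSlug1 and 0.70 with shSlug2. Since shLuc is common to both changes, this is the hairpin difference itself (limma adjusted p = 4.7e-09), with all 5 shSlug1 libraries under all 5 of shSlug2.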

How the results depend on the processing

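The count of 64 calls was 38 under TMM scaling, 27 without shSlug1 replicates 4 and 5, 18 after thinning to 158729 counts, 23 under TMM without those replicates, 22 without these and shSlug2 replicate 4, and 37 to 79 over fits without 1 library, lowest without shSlug2 replicate 4. Calls lower with shSlug1 were 35 under TMM, 38 under quantile scaling, 35 without mitochondrial genes, 25, 17, 20 and 20 in the order of the last 4 settings before the range, and 35 to 76 without 1 library. Calls higher with shSlug1 were 9 with a pseudocount of 5, 6 without a filter, 7 with a minimum of 20 CPM, 6 under quantile scaling, 9 without mitochondrial genes, 6 and 9 in fits of 10 and 15 libraries, 26 in edgeR, 32 in DESeq2, 1 after thinning, 42 in edgeR without shSlug1 replicates 4 and 5, 40 in edgeR without the 3 libraries, and 2 to 5 without 1 library. The cause was not tested. The Snai2 difference of 0.37 turned to -0.21 without shSlug1 replicates 4 and 5, -0.10 there in edgeR, -0.18 there under TMM, -0.73 without the 3 libraries and -0.32 there in edgeR, and ran from -0.16 to 0.98 without 1 library, never called. Replicate numbers did not pair the libraries (correlations of -0.044 to 0.014), and the replicate block gave 57 calls, 56 of them shared. The scalings moved the median of all genes by 0.04 to 0.09. Of the values of named calls under the alternatives 622 stayed on their side of the threshold, 131 were no longer called and none reversed, and 62 of 64 calls kept their sign in all 28 settings, the others being untested in 1. Counts of 2 or 3 limit what Snai2 can show.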
